A study of Mus musculus with 4 samples.

Results

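The clock output transcription factors are 8 genes, Dbp, Tef, Hlf, Nfil3, Ciart, Bhlhe40, Bhlhe41 and Rora, found by symbol in the GENCODE M21 annotation of GRCm38 among the 55573 gene IDs of each count file. Each symbol matched 1 ID, and all 8 genes passed the filter on low counts that left 13076 genes to test. The counts come from RNA-seq of quadriceps muscle of 7-week-old mice, with 2 libraries of Vdr-/- mice (strain B6.129S4-Vdrtm1Mbd/J) and 2 of wild-type (WT) mice (strain C57BL/6J). These knockout mice carry in every tissue an allele without the exon for a part of the DNA-binding domain of the vitamin D receptor. All mice were weaned at 21 days and kept on regular chow and water, and no other allele or agent is named in the labels. The labels number the libraries of each genotype without saying that they are separate animals, so the spread behind each p-value may be technical. They give no hour of dissection, no light schedule and no sex.

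The circadian clock is a feedback loop in which the activators BMAL1 (gene Arntl) and CLOCK drive their own repressors, the PER, CRY and REV-ERB proteins, and with them a layer of output factors that pass the rhythm on to other genes. DBP, TEF and HLF are PAR bZIP activators that bind D-box elements, and NFIL3 (E4BP4) is a bZIP repressor that binds the same elements, usually with its peak at the opposite phase to DBP. CIART (CHRONO) and the paralogues BHLHE40 and BHLHE41 (DEC1 and DEC2) repress transcription driven by CLOCK and BMAL1 at E-boxes, and RORα (gene Rora) activates genes at ROR elements where REV-ERBs repress. In skeletal muscle these factors are expressed in fibres and are known to follow the daily rhythm of activity and feeding.

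The libraries held 10.79 M to 21.34 M counts. All 12 skeletal muscle fibre markers were expressed, with a summed level of 105700 to 114600 CPM for WT and 99560 to 101700 CPM for the knockout; CPM are read counts scaled to the library total and by TMM, a factor for library composition. Vdr had 0 to 5 counts in every library and therefore checks no label. By Xist (183 and 217 CPM in WT, 0 and 0.256 CPM in the knockout) the WT libraries are female and the knockout libraries male, so genotype and sex cannot be told apart in any comparison. The Y-linked gene Ddx3y also had 50 counts in WT replicate 1 and 0 in WT replicate 2. Knockout replicate 1 stood apart for several clock genes, as described below, and results are given with and without it.

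Promoter windows were taken from RefSeq (GRCm38.p6) for 7 of the 8 genes, from 250 bases before to 50 bases after the start site, all but Bhlhe40. RefSeq and GENCODE do not place every start alike. Both Tef windows lie wholly inside the GENCODE span of Tef, and most of the Dbp window lies inside that of Dbp. The E-box letters CACGTG, bound by CLOCK and BMAL1, lay in 4 of 8 member windows, against 7.15% of all 32851 windows of this length. These were both windows of Tef and those of Ciart and Bhlhe41. The member windows had 60.3% to 81.7% GC, against a median of 52.7% over all windows. Shares over all windows are thus not matched for GC. Ciart held 3 E-boxes, a number reached by 29 of all windows (0.09%). The windows of Ciart, Dbp and Nfil3 are shown whole because these genes differed most between the knockout libraries, with E-boxes in capitals, each 5′ to 3′ on the gene's strand.
Ciart promoter (chr3:95882179-95882478, minus strand): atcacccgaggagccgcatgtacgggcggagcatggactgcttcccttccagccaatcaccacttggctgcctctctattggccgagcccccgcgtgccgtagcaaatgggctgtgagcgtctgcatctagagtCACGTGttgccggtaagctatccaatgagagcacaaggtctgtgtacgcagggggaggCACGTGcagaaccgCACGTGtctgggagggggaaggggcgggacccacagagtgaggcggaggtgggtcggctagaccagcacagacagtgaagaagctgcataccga
Dbp promoter (chr7:45704997-45705296, plus strand): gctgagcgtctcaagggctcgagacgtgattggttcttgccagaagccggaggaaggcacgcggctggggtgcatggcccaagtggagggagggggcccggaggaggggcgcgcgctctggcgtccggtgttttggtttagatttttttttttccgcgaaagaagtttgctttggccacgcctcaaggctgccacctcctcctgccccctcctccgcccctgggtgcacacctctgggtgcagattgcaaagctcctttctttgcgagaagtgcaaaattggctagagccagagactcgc
Nfil3 promoter (chr13:52980990-52981289, minus strand): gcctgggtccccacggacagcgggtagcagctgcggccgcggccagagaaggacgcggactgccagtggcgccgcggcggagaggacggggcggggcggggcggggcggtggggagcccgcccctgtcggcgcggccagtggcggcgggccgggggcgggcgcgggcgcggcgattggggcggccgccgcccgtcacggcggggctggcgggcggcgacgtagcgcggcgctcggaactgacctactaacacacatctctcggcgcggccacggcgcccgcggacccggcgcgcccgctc

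The Ciart E-boxes begin at positions -116, -58 and -44 from the start site. The windows of Dbp and Nfil3 held no match to any motif searched. This bears on these letters in this window alone. The remaining matches are shown with 10 bases on either side, to compare what surrounds the core, which is in capitals.
Tef, first start site, E-box: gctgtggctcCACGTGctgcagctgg
Tef, second start site, E-box: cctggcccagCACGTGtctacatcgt
Bhlhe41, E-box: gtacgttccgCACGTGagctgggtgc
Hlf, CRE: gtgcgggcccTGACGTCActcttgtcag

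The Tef E-boxes begin at -127 and -138 from their start sites and that of Bhlhe41 at -153. Hlf held the cyclic AMP response element TGACGTCA (CRE) at -9, letters present in 1.79% of all windows. No window of the 7 genes held the E′-box CACGTT (4.68% of all windows), the D-box TTANGTAA (2.32%), a ROR element (RORE, 0.38%) or a vitamin D response element (VDRE, 0.04%). Both strands were searched, no matches overlapped, and a match is a description of letters and not of binding.

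**Figure D1:**
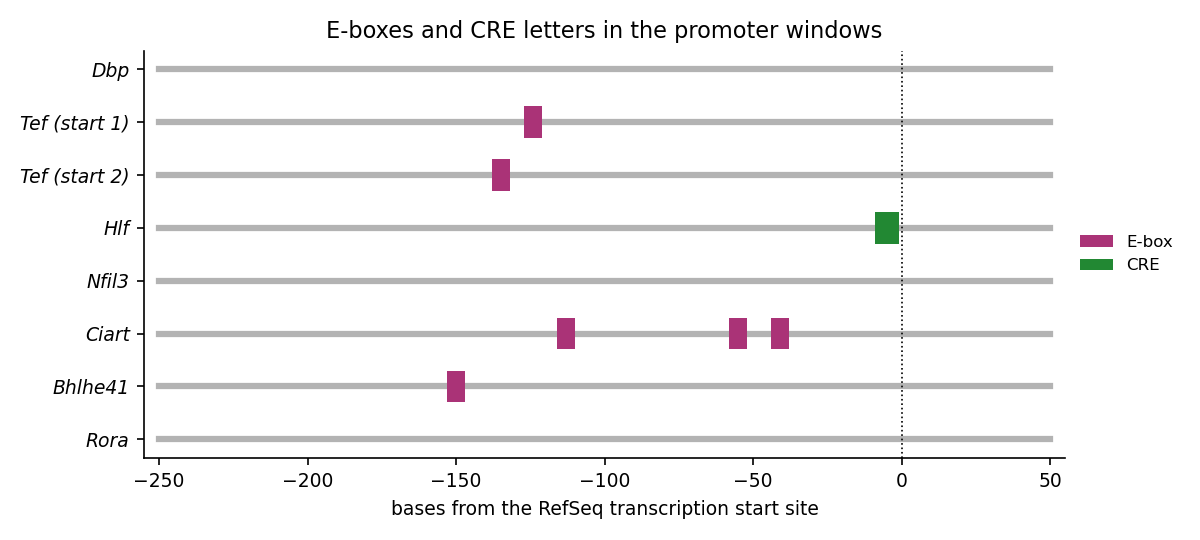
Position of the E-box and CRE letters (coloured boxes) in the RefSeq promoter windows of 7 clock output genes (grey lines), in bases from the start site at the dotted line. Ciart holds 3 E-boxes, each Tef window and Bhlhe41 hold 1, Hlf holds a CRE, and Dbp, Nfil3 and Rora hold no match.

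No clock output gene was called between knockout and WT. The edgeR quasi-likelihood test, with Benjamini-Hochberg adjustment over all 13076 genes and a call at an adjusted p below 0.05, called 0 of 8, where 2.03% of all tested genes were called. DESeq2 also called 0. At an unadjusted p below 0.05 there were 2 of 8 by edgeR (Hlf and Rora), beside 14.0% of all tested genes, and 1 by DESeq2 (Rora). For 4 genes (Dbp, Tef, Hlf and Rora) both knockout libraries lay below both WT libraries, which is 50% of the members and was so for 21.7% of all tested genes, and for none did both lie above. The median log2 fold change of the 8 genes was -0.23, with 6 negative and 2 positive, against a median of -0.001 over all tested genes. In bulk muscle, fewer cells that express a gene and less RNA per cell cannot be told apart.

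The same genes did differ between the libraries of 1 genotype. Dbp, Ciart and Nfil3, which is 37.5% of the members, were more than 2-fold apart between the knockout replicates, as were 3.0% of all tested genes. In WT no member was that far apart, and the WT replicates differed by 0.02 (Bhlhe40) to 0.33 (Rora) on the log2 CPM scale. The median difference over all tested genes was 0.192 between the WT and 0.197 between the knockout libraries.

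**Figure D2:**
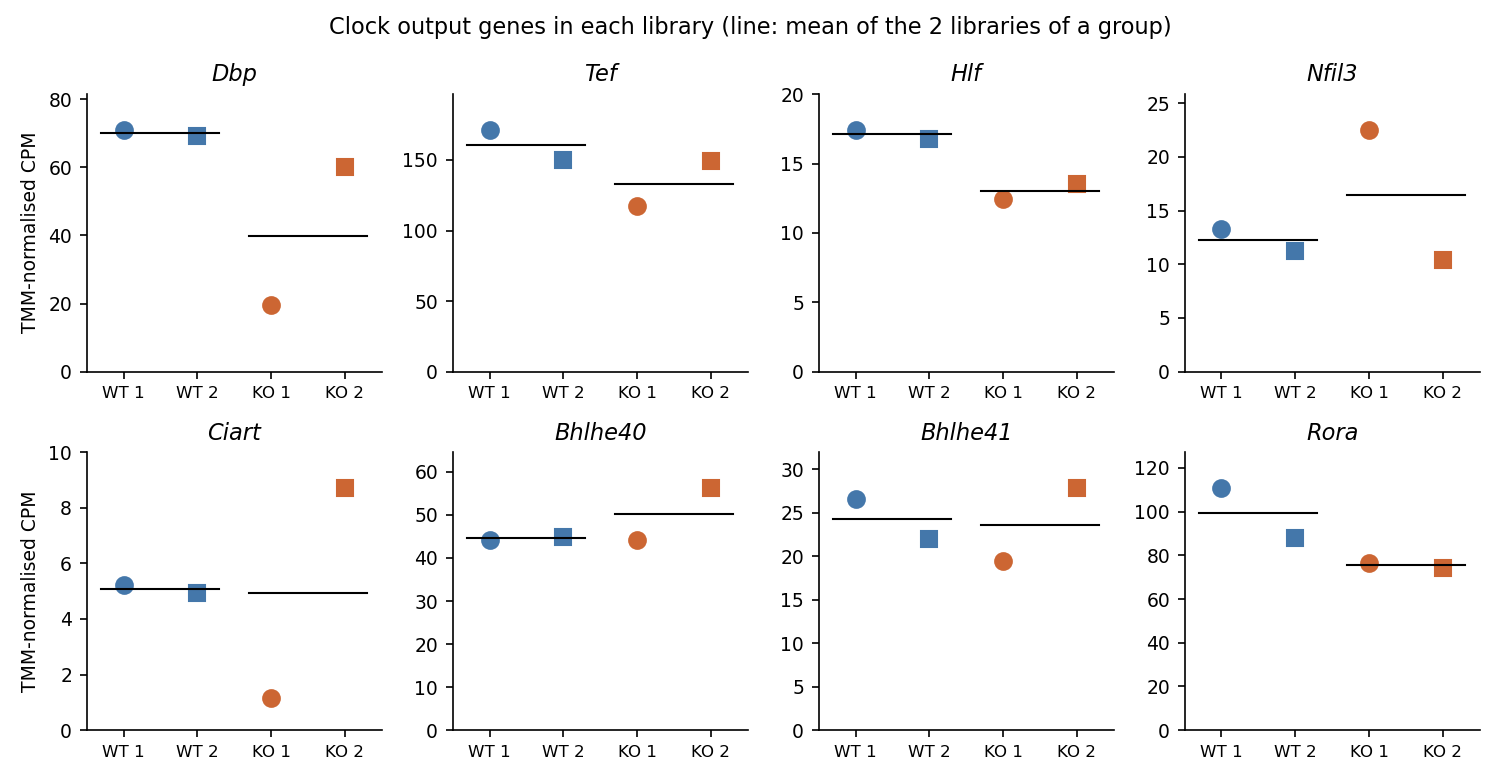
TMM-normalised CPM of the 8 clock output genes in each library, circles for replicate 1 and squares for replicate 2, with a line at the mean of each group and every axis starting at 0. In knockout replicate 1 Dbp (19.5 CPM) and Ciart (1.14 CPM) are the lowest and Nfil3 (22.5 CPM) is the highest of the 4 libraries.

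Of the PAR bZIP activators, Dbp (ENSMUSG00000059824, chromosome 7, 45705088 to 45710203) is the classical output gene of the clock. Its level was 71.0 and 69.1 CPM in WT replicates 1 and 2 and 19.5 and 60.1 CPM in knockout replicates 1 and 2. Knockout replicate 1 was thus far below the other 3 libraries, and knockout replicate 2 a little below both WT libraries. The log2 fold change was -0.83 ± 0.73 (SE, n = 2 per group; edgeR adjusted p = 0.749), with a 95% interval from -3.57 to 1.90, so both a fall and a rise of 3-fold lay inside it. Between the knockout libraries Dbp was 3.09-fold lower in replicate 1 (95% interval of the ratio 2.73 to 3.49, Clopper-Pearson, which covers counting error only). A difference as large was found for 0.28% of the 2140 genes with a mean CPM within 2-fold of that of Dbp.

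Tef (ENSMUSG00000022389, chromosome 15, 81802421 to 81826863) encodes the thyrotroph embryonic factor, an activator that shares the D-box with DBP. It measured 171 and 150.1 CPM in the WT libraries, against 117 and 149.4 in the knockout libraries. The groups were separated only by the small gap between WT replicate 2 and knockout replicate 2. Its log2 fold change was -0.27 ± 0.15 (edgeR adjusted p = 0.471; 95% interval -0.60 to 0.06). Tef lies on the chromosome of Vdr, 16.03 Mb from it, and is the only member on that chromosome.

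Hlf (ENSMUSG00000003949, chromosome 11, 90336536 to 90390895) encodes the hepatic leukemia factor, the third PAR bZIP activator. Its 4 values were 17.4 and 16.8 CPM in the WT libraries, against 12.5 and 13.6 in the knockout libraries. Both knockout libraries lay below both WT libraries, and the libraries of each group were close together (SD 0.467 and 0.781 CPM). The log2 fold change of -0.40 ± 0.15 had an unadjusted p = 0.0217 but did not pass after adjustment (edgeR adjusted p = 0.247), and its 95% interval ran from -0.73 to -0.07. It kept a negative sign without each library in turn, at -0.45 to -0.34.

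The repressor Nfil3 (ENSMUSG00000056749, chromosome 13, 52967209 to 52981073) ran against the 3 activators in knockout replicate 1. Its level was 13.3 and 11.2 CPM in the WT libraries, against 22.5 and 10.4 in the knockout libraries. The highest and the lowest of the 4 values were thus both knockout libraries. The log2 fold change was 0.45 ± 0.40 (edgeR adjusted p = 0.714; 95% interval -0.59 to 1.5). The ratio between knockout replicates 1 and 2 was 2.17 (95% counting interval 1.77 to 2.67), and 0.67% of the 4935 genes at a like level differed as much.

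The mRNA levels of the activators and of the repressor can be compared within each library as a ratio of levels per length (CPM per kb of exon). Proteins and their binding to the D-box were not measured. Summed, Dbp, Tef and Hlf stood at 7.35 and 8.06 times the level of Nfil3 in WT, and at 2.09 and 8.0 times in knockout replicates 1 and 2. Knockout replicate 2 fell between the WT libraries and knockout replicate 1 far below them. For Dbp alone the ratio to Nfil3 was 3.62 and 4.17 in WT, 0.586 in knockout replicate 1 and 3.91 in knockout replicate 2. Dbp made up 49.3% and 51.7% of the summed activators in WT, 28.0% in knockout replicate 1 and 48.9% in knockout replicate 2, and Tef made up 64.0% in knockout replicate 1. These sizes depend on the length used. With the longest transcript, the summed ratio was 12.32 and 13.47 in WT and 3.55 and 13.45 in knockout replicates 1 and 2, and that of Dbp to Nfil3 was 5.90 and 6.79 in WT, 0.954 in knockout replicate 1 and 6.37 in knockout replicate 2. Tef then made up slightly more of the sum than Dbp in WT replicate 1 (48.3% against 47.9%) and in knockout replicate 2 (49.1% against 47.4%). With either length knockout replicate 1 had the lowest ratio. The choice of length could not alter that result, because it scales a gene alike in every library. Dbp, Tef and Hlf each had their lowest ratio to Nfil3 in knockout replicate 1. With 2 libraries a group an exact permutation test cannot go below p = 0.333, so these ratios were not tested.

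Among the repressors of CLOCK and BMAL1, Ciart (ENSMUSG00000038550, chromosome 3, 95878503 to 95882251) had the lowest counts and the largest spread of the 8 genes. It had 55 and 63 counts in the WT libraries, against 24 and 102 in the knockout libraries, or 5.21, 4.92, 1.14 and 8.70 CPM in this order. The knockout libraries enclosed the WT values, with replicate 1 far below and replicate 2 above. Its log2 fold change of -0.18 ± 1.24 (edgeR adjusted p = 0.973) therefore had a 95% interval from -4.69 to 4.32, and the data bound the effect of genotype on Ciart hardly at all. The level in knockout replicate 2 was 7.62 times that in replicate 1 (95% counting interval 4.85 to 12.4).

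Ranked by the difference between the knockout libraries, Ciart was number 6 of the 11102 tested genes with a mean CPM of at least 2, Dbp number 34 and Nfil3 number 110. The 5 genes above Ciart, named after their values were seen, were Ibsp, S100a9, Nr1d1, S100a8 and Atf3. Of these Nr1d1, which encodes the repressor REV-ERBα of the core clock, measured 42.6 and 43.2 CPM in the WT libraries, against 5.85 and 49.9 in the knockout libraries. It was thus low in the same library as Dbp and Ciart. Ibsp, a matrix protein of bone, was at 39.2 CPM in knockout replicate 1 and 3.16 CPM in replicate 2, and the neutrophil gene S100a9 at 10.4 and 0.853 CPM.

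**Figure D3:**
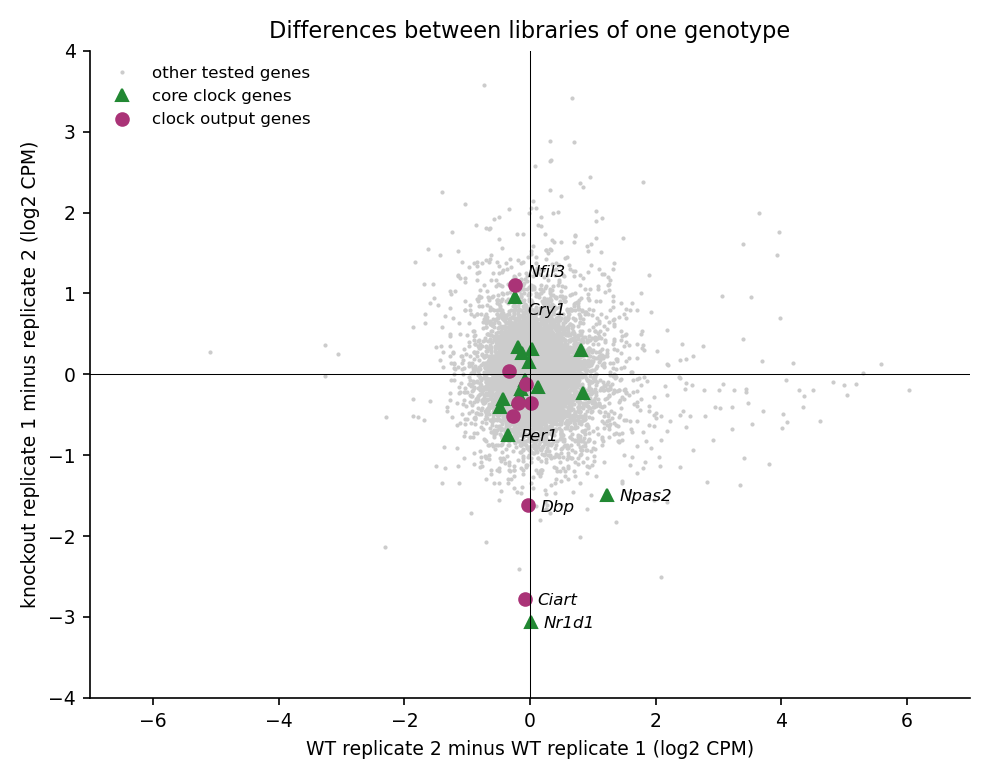
Difference between the WT replicates (x axis) and between the knockout replicates (y axis) in log2 CPM for every tested gene, with clock output genes as circles and core clock genes as triangles. Ciart (-2.78), Nr1d1 (-3.06) and Dbp (-1.62) lie far below 0 on the knockout axis and close to 0 on the WT axis, and Nfil3 (1.10) lies above.

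The paralogues Bhlhe40 (ENSMUSG00000030103) and Bhlhe41 (ENSMUSG00000030256), both on chromosome 6 (108660629 to 108666925 and 145858243 to 145865558), encode bHLH repressors that are also induced by other stimuli such as hypoxia. Bhlhe40 measured 44.3 and 44.9 CPM in the WT libraries, against 44.2 and 56.2 in the knockout libraries. Only knockout replicate 2 was set apart from the other 3 libraries. Bhlhe41 had 26.5 and 21.9 CPM in the WT libraries, against 19.4 and 27.8 in the knockout libraries. Here the knockout libraries enclosed the WT values. The log2 fold changes were 0.17 ± 0.14 for Bhlhe40 (edgeR adjusted p = 0.676) and -0.04 ± 0.18 for Bhlhe41 (edgeR adjusted p = 0.952). Their 95% intervals, -0.15 to 0.48 and -0.45 to 0.36, leave out a change of 1.5-fold in either direction. Per length, Bhlhe40 was 2.38 to 3.24 times as abundant as Bhlhe41 in the 4 libraries. With the longest transcript as length, it was 3.29 to 4.47 times as abundant.

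Rora (ENSMUSG00000032238, chromosome 9, 68653786 to 69388246) encodes the nuclear receptor RORα, an activator of Arntl. Its level was 111 and 87.9 CPM in the WT libraries, against 76.5 and 74.4 in the knockout libraries. The knockout libraries were close together and both below WT, whose own replicates were further apart than those of any other member. The log2 fold change of -0.39 ± 0.14 had the smallest unadjusted p of the 8 genes (0.0169) and did not pass after adjustment (edgeR adjusted p = 0.221; 95% interval -0.70 to -0.09). Leaving out WT replicate 1 gave -0.22, and leaving out WT replicate 2 gave -0.55. Counts per gene do not separate the isoforms of RORα.

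**Figure D4:**
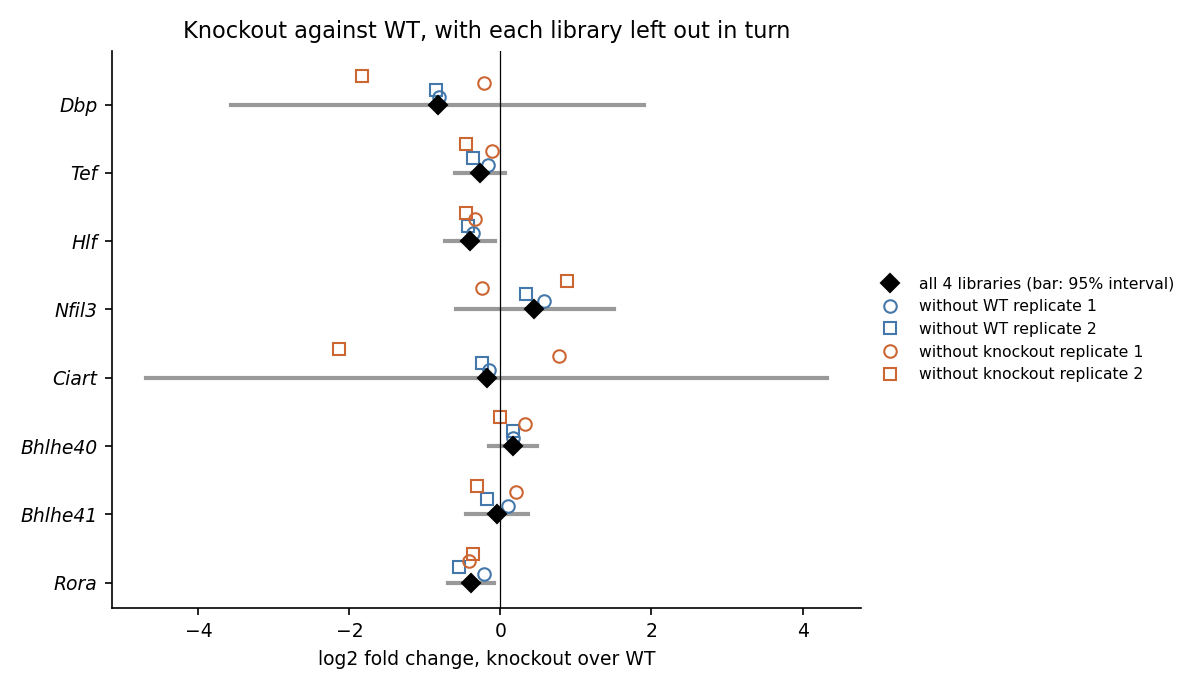
Log2 fold change of each clock output gene, knockout over WT, with its 95% interval (diamond and bar) and the value without each library in turn (open symbols). Leaving out a knockout library moves Ciart between -2.14 and 0.78, Dbp between -1.84 and -0.22 and Nfil3 between -0.24 and 0.88. Dbp, Tef, Hlf and Rora stay below 0 without each library in turn.

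The outcome for 3 of the 8 genes rested on which knockout library was used. Without knockout replicate 2, edgeR called Dbp (-1.84, adjusted p = 0.000612), Ciart (-2.14, adjusted p = 0.0151) and Nfil3 (0.88, adjusted p = 0.0426), against 2.21% of all genes tested in that fit. The core clock gene Nr1d1 was called in the same fit. Without knockout replicate 1 none of the 8 was called, with Dbp at -0.22 (adjusted p = 0.629), Ciart at 0.78 (adjusted p = 0.222) and Nfil3 at -0.24 (adjusted p = 0.731). The lone knockout library of these fits is assumed to vary like the WT libraries, and Ciart and Nfil3 change sign between them. Over the 4 fits that leave out a library, the adjusted p of Dbp ran from 0.000612 to 0.945, that of Ciart from 0.0151 to 0.997 and that of Nfil3 from 0.0426 to 0.915.

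Compared per length, Dbp and Tef were the most abundant of the 8 genes in WT, at 23.4 ± 0.436 and 20.4 ± 1.92 CPM per kb (SD, n = 2). Bhlhe40 (9.48 ± 0.104), Rora (7.60 ± 1.24), Nfil3 (6.05 ± 0.709), Bhlhe41 (3.61 ± 0.485), Hlf (2.56 ± 0.0699) and Ciart (2.24 ± 0.0926) followed. The WT values of neighbours in this order did not overlap, but Rora and Nfil3 differed by about their spread. With the longest transcript as length, a choice made after seeing the data, the values of Dbp (37.6 to 38.6) and Tef (34.1 to 38.9) overlapped. In the knockout the order began with Tef (16.9 ± 2.89) and Dbp (13.3 ± 9.60), which overlapped, and the level of Nfil3 (8.13 ± 4.23) overlapped with those of Dbp, Bhlhe40 and Rora. Ciart ranged from 0.505 to 3.85 CPM per kb there, which enclosed the values of Hlf and overlapped with those of Bhlhe41.

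**Figure D5:**
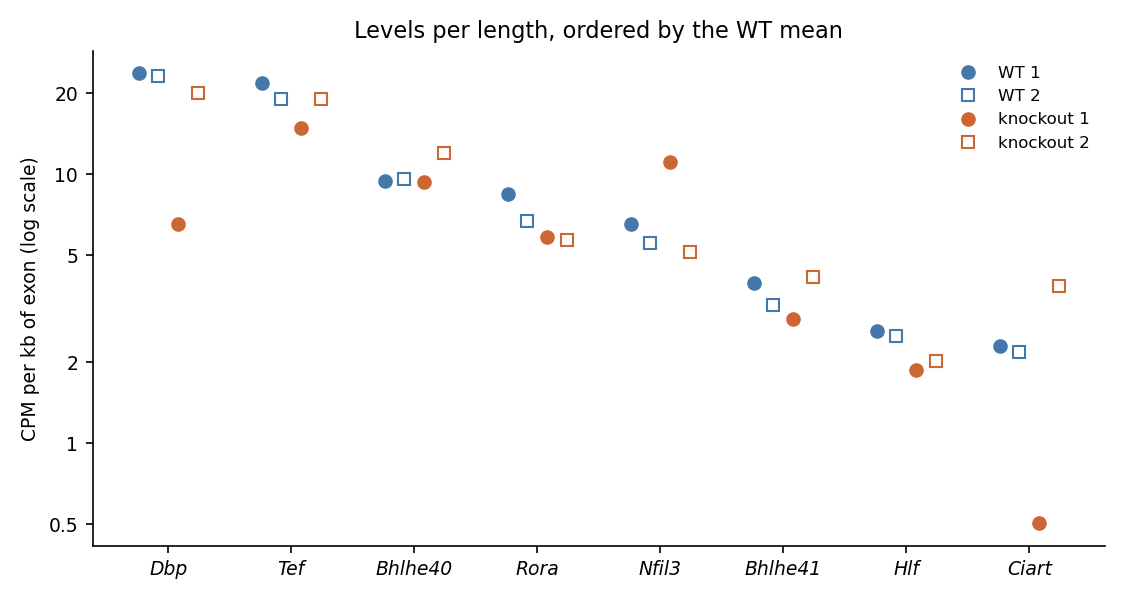
Levels of the 8 clock output genes per length (CPM per kb of exon, log axis) in each library, ordered by the WT mean. Dbp and Tef lead in WT, and in knockout replicate 1 Dbp (6.51) falls below Nfil3 (11.1).

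The core clock list held 18 genes, of which 17 were tested and 1 was called lower, against 0.413% of all tested genes. By edgeR, 7 of the 17 had an unadjusted p below 0.05, beside 14.0% of all tested genes. Of the 17 log2 fold changes, 7 were positive and 10 negative, with a median of -0.07. Nr1d2, which encodes the repressor REV-ERBβ, fell from 132 ± 9.43 to 82.6 ± 12.5 CPM (-0.68 ± 0.14, edgeR adjusted p = 0.0361). REV-ERBβ acts at the elements bound by RORα. The call of Nr1d2 was lost without WT replicate 1 (-0.60) and without knockout replicate 1 (-0.53).

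The activator Arntl and the repressor Per2 did not pass the test. Arntl measured 1.90 and 3.43 CPM in the WT libraries, against 6.13 and 4.95 in the knockout libraries (1.05 ± 0.30, edgeR adjusted p = 0.126), and Per2 measured 28.4 and 28.9 CPM against 20.4 and 16.4 CPM (-0.64 ± 0.15, edgeR adjusted p = 0.0609). For both, the knockout libraries were close to each other and did not overlap with WT. This differs from the picture for Dbp, Ciart and Nr1d1, where knockout replicate 2 lay near or above WT. Of the 17 core clock genes, 2 were more than 2-fold apart between the knockout libraries, Nr1d1 and Npas2, and Npas2 had only 3 to 14 counts. Per1 (37.0 and 62.6 CPM) was lower and Cry1 (9.41 and 4.77 CPM) higher in knockout replicate 1 than in replicate 2.

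Genes reported as targets of the output factors were taken as short lists written with earlier results of these data known. Of 10 reported targets of the PAR bZIP factors 6 were tested and 1 was called higher, with a median of 0.26, where 1.61% of all tested genes were called higher. It was Por, the electron donor of microsomal P450 enzymes, which rose from 28.2 ± 2.07 to 51.1 ± 2.91 CPM (0.86 ± 0.13, edgeR adjusted p = 0.00774). The list of reported ROR and REV-ERB targets held 16 genes, Nfil3 among them. It had 13 tested members, a median of 0.45 and no lower call. It shares genes with the core clock list, among them Arntl, Clock, Npas2, Cry1 and Nr1d1. The core clock gene Per1 is in both other target lists. Genes called higher included the fatty acid transporter gene Cd36 (0.97 ± 0.12), Srebf1, a regulator of lipid synthesis (28.3 ± 1.39 to 53.1 ± 4.85 CPM), and Apoc3, with 1 and 2 counts in the WT libraries, against 27 and 14 in the knockout libraries. Of 9 reported targets of Bhlhe40 and Bhlhe41 only Srebf1 was called, and that list also holds the members Dbp, Bhlhe40 and Bhlhe41. Fat cells also express Cd36 and Srebf1, and 11 of 14 fat-cell markers were called higher, with a summed level of 2402 and 2636 CPM in the WT libraries, against 6922 and 6190 in the knockout libraries, and no marker was at 0 in all libraries. Their part in the calls of these target genes was not tested.

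Of 19 genes known to be rhythmic in muscle or in many tissues, 15 had a negative log2 fold change, 1 was called higher and none lower (median -0.24). Of all 13076 tested genes 6550 were negative, and the calls of this and the next 3 lists stand beside 1.61% of all tested genes called higher and 0.413% called lower. The called gene was Pdk4, the kinase that closes pyruvate dehydrogenase, at 94.7 and 84.7 CPM in the WT libraries, against 133 and 141 in the knockout libraries (0.61 ± 0.12, edgeR adjusted p = 0.0345). Of 16 glucocorticoid-induced genes 1 was called higher and none lower, the cell cycle inhibitor gene Cdkn1a (0.98 ± 0.18, edgeR adjusted p = 0.0222). Among 13 tested hypoxia-induced genes, Vegfa (0.81 ± 0.17) was called higher and P4ha1 (-0.95 ± 0.13) lower, and among 21 tested immediate-early genes Zfp36 (1.21 ± 0.17) and Dusp1 (0.63 ± 0.12) were called higher.

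Several lists differed in the same library as the low Dbp and Ciart of knockout replicate 1. Of the 21 immediate-early genes 17 were higher in knockout replicate 1 than in replicate 2 and 9 were more than 2-fold apart (median difference 0.68 on the log2 CPM scale), where 6548 of all 13076 tested genes were higher. Their summed level was 450 and 352 CPM in the WT libraries, against 602 and 405 in the knockout libraries. Of the 16 glucocorticoid-induced genes 15 were higher in knockout replicate 1 and none was more than 2-fold apart (median 0.43; summed level 1015 and 872 CPM in WT, 1214 and 929 CPM in the knockout). The 8 neutrophil markers, of which 3 were tested, summed to 3.03 and 3.36 CPM in the WT libraries, against 39.0 and 8.95 in the knockout libraries, and none was at 0 in all libraries. The 12 fibre markers summed to 99560 and 101700 CPM in the knockout, and 2 of them were more than 2-fold apart. Myl2 and Tnnc1, genes of slow fibres and heart that are not in this marker list, were named after their values were seen. They ranked 8 and 10 by the difference between the knockout libraries. Myl2 had 25.1 CPM in knockout replicate 1 and 4.52 CPM in replicate 2, and both WT values fell between these (9.29 and 18.26 CPM). Tnnc1 had 10.5 CPM in knockout replicate 1 and 2.05 CPM in replicate 2, again with both WT values between (4.45 and 5.54 CPM). For Myl2 and Tnnc1, knockout replicate 1 was thus above WT and knockout replicate 2 below it. The part of these lists in the differences of the clock output genes was not tested.

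Genes with shared exonic bases were found for 5 of the 8 members, all on the opposite strand. Sphk2 shares 539 exonic bases with Dbp on the opposite strand and had 74 and 101 counts in the WT libraries, against 218 and 84 in the knockout libraries. Dbp itself had 410 to 886. These counts are not scaled to library size. Knockout replicate 1 held 21.34 M counts in all, against 10.79 M and 13.03 M in WT and 11.21 M in knockout replicate 2. The counts were strand-specific by a check on genes covered by another, so reads of the pair are split by strand. The partners with shared exonic bases of Tef, Bhlhe40, Bhlhe41 and Rora had at most 6 counts in any library.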

How the data were processed

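RNA of 4 quadriceps libraries was measured by RNA-seq. The deposited files hold unnormalised read counts by Ensembl gene ID, 1 column per library. The submitters' processing notes name STAR, Trimmomatic, DESeq2 and the build GRCm38 (mm10). These notes name no annotation and no counting mode. Of the 55573 IDs, 55480 (99.83%) matched GENCODE M21. Counts were strand-specific: a gene lying fully inside exons of another had a count in 121 of 462 cases with opposite strands and in 1 of 608 with the same strand.

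Total counts were 10.79 M and 13.03 M in WT and 21.34 M and 11.21 M in the knockout. Genes were kept by filterByExpr (minimum count 10, minimum total 15), scaled by TMM (factors 0.9797 to 1.0485) and tested across all genes with edgeR 4.0.16 in R 4.3.3, by quasi-likelihood with robust estimation, legacy = FALSE and genotype as the only term. SEs come from the F statistic and 95% intervals from the t distribution with the fitted degrees of freedom. The test was checked on simulated counts. Replicate differences use log2 CPM (prior count 2), and levels per length divide by the union of exons. Alternatives were DESeq2 1.42.0, its size factors in edgeR, no filter, mitochondrially encoded genes and Rn7sk left out, a replicate block, each library left out and, added after seeing the data, the legacy deviance and X- and Y-linked genes left out.

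The members and lists were chosen with earlier results of these data known. Named are the members, tested core clock genes and, in each other list except the markers, called genes up to 6. Neighbours by expression pattern were to be named for called members, of which there were 0. The result of 1 listed gene is not reported here.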

Additional observations from a re-analysis of the deposited data

How the results depend on the processing

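No clock output gene was called in any of the 7 alternatives that keep all 4 libraries, and all 56 of their log2 fold changes kept the sign of the reported value. Leaving out a library gave 0 to 3 called members. Without 1 library the log2 fold change ran from -0.24 to 0.88 for Nfil3 and from -2.14 to 0.78 for Ciart, with the sign turned without knockout replicate 1. It ran from -0.31 to 0.20 for Bhlhe41 (turned without knockout replicate 1 or WT replicate 1, 0.10) and from -0.01 to 0.33 for Bhlhe40 (turned without knockout replicate 2). Core clock genes called numbered 4 without the low-count filter (Arntl and Per2 in addition) and 1 to 3 without a library. Of all genes, the fit without the filter called 476 of 26657 tested, against 265 of 13076. The median log2 fold change of all genes stayed between -0.017 and 0.009 in every alternative run. The labels number the replicates of both groups, and deviations of same-numbered libraries correlated at 0.039 over genes. With 2 libraries a group this compares only the difference within each genotype. It cannot decide whether the numbers pair the libraries. With a replicate block 0 members, 2 core clock genes and 346 genes in all were called, and Ciart stood at -0.39. The counts behind Ciart (24 to 102) limit its precision less than the spread between the knockout libraries does.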
